A study of Mus musculus with 5 samples.

Results

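Hypoxia and glycolysis genes were followed in 5 end-stage medulloblastomas, tumours of the cerebellum, from mice carrying SmoA2. They were a fixed list of 35 genes: glucose transporters, the enzymes that take glucose to pyruvate, genes that handle pyruvate and lactate, the hypoxia-inducible factors with their oxygen sensors, and genes that these factors induce. Members were found by gene symbol among the probes of an Illumina mouse bead array, and 32 of the 35 had a probe named with a single symbol, 60 probes in all of 45281 on the array. Hk2, Eno1 and Gpi1 had none and were not analysed here. A probe was kept when its detection p-value was under 0.05 on at least 2 of the 5 arrays. This left 39 probes of 25 members, among 10474 genes tested in the whole series, and each gene was represented by its brightest probe.

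Of the 5 tumours, 3 had both copies of Myod1, which encodes the muscle transcription factor MyoD (MyoD+/+;SmoA2, tumours 1 to 3), and 2 carried Myod1 on only 1 chromosome of the pair (MyoD+/-;SmoA2, tumours 1 and 2). All 5 carried SmoA2, a mutated, active form of Smoothened, the membrane protein that passes on the hedgehog signal, so no tumour without SmoA2 and no normal cerebellum stands beside them. The labels give neither the promoter that drives SmoA2, nor the age or strain of the mice, nor whether each tumour came from its own mouse. P-values therefore measure the spread between these samples. The sample titles also carry letters, AI for MyoD+/+ tumour 1, V for MyoD+/+ tumour 2 and MyoD+/- tumour 1, and P for MyoD+/+ tumour 3 and MyoD+/- tumour 2; the labels do not say what the letters stand for. Of 20 listed markers of granule neuron precursors, the cells from which hedgehog-driven medulloblastoma arises, 11 passed the filter, among them Zic1, Barhl1, Gli2, Ptch1 and Ccnd2. Atoh1, Barhl2, Pax6, Zic5, Gli1, Mycn and Boc were not detected on any array. Between 37.0% and 39.9% of probes were detected per array, the median signal ran from 133.6 (MyoD+/+ tumour 2) to 148.1, and Pearson's r between arrays across the genes tested ran from 0.965 to 0.984.

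Cells sense oxygen through prolyl hydroxylases (the Egln enzymes), which mark the alpha subunits of the hypoxia-inducible factors for destruction while oxygen is present. When oxygen falls the subunits persist, enter the nucleus and bind a short core sequence, commonly ACGTG. It lies beside genes for glucose uptake, glycolysis, pH control and mitochondrial turnover. Proliferating granule neuron precursors and hedgehog-driven medulloblastoma are known for a high rate of glycolysis even where oxygen is present, with hexokinase 2 and pyruvate kinase M2 as the enzymes most studied. The amount of the factors is set mainly at the protein level, which an RNA array does not read.

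All levels given here are log2 signals after background correction and quantile normalization. A difference of 1 on this scale is a change of 2-fold. Probes differ in how brightly they report a transcript, so the level of one gene is never set against that of another. Differences are MyoD+/- minus MyoD+/+ with the standard error (SE) of a limma fit across all 10474 genes, and p-values were adjusted over all of them by the Benjamini-Hochberg method. These are bulk samples, in which fewer cells of a type and less RNA per cell cannot be told apart.

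No member differed between the genotypes past an adjusted p of 0.05 in limma (0 of 25), and neither did any gene of the series (0% of 10474). Adjusted p-values of the members ran from 0.911 to 0.999. At an unadjusted p under 0.05 there was 1 member, Ndrg1, against 5.26% of all genes (551). The groups did not overlap in 6 of the 25 members (24%), beside 20.9% of all genes. Pgk1 and Bnip3l were higher in both MyoD+/- tumours than in all 3 MyoD+/+ tumours, and Ndrg1, Gapdh and Slc2a1 were lower. The sixth, Egln3, stayed at background in all 3 MyoD+/+ tumours and passed the filter only through the MyoD+/- tumours, so its separation carries no weight. Among the 21 members detected on all 5 arrays the groups were apart in 5, beside 21.5% of the 8863 genes so detected. With arrays scaled to a common median they were apart in 4 of 25, beside 26.7% of all genes. Counted by probe, the groups were apart in 9 of 39, beside 20.9% of all probes tested. Of the 25 members, 11 had a higher and 14 a lower mean in MyoD+/-, with a median difference of -0.07 beside -0.00 over all genes; under median scaling 19 were higher and 6 lower, with medians of 0.12 and 0.14. In 21 of the 25 (84%, beside 87.7% of all genes) the 95% interval of the difference lay within 2-fold in both directions. The exceptions were Ndrg1, Car9, Eno2 and Pfkp, whose intervals reached past it.

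**Figure D1:**
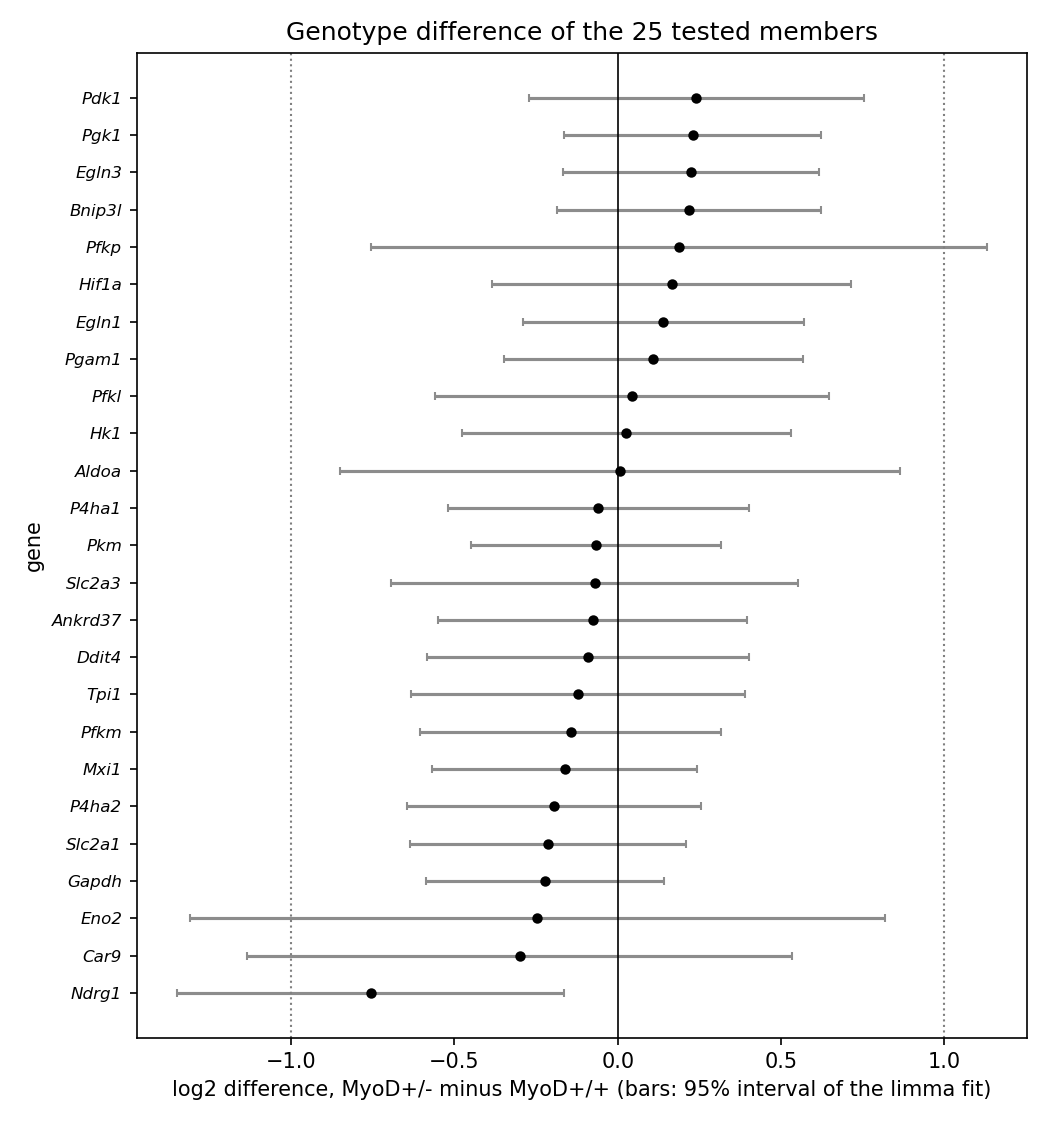
Difference between genotypes of the 25 tested members on the log2 scale, MyoD+/- (2 tumours) minus MyoD+/+ (3 tumours); points are the fitted differences, bars their 95% intervals from limma, and dotted lines mark a 2-fold change. Only the bar of Ndrg1 leaves out 0, and the bars of Ndrg1, Car9, Eno2 and Pfkp cross a dotted line.

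Glucose enters brain cells through 2 listed transporters, Slc2a1, carried by blood vessel and many other cells, and Slc2a3, the main transporter of neurons. Slc2a1 had levels of 9.37, 9.03 and 9.09 in MyoD+/+ tumours 1 to 3 and of 8.90 and 8.99 in MyoD+/- tumours 1 and 2. The groups did not overlap, by 0.03 between the nearest tumours, and MyoD+/- stood -0.21 ± 0.18 from MyoD+/+ (SE, 3 and 2 tumours, limma adjusted p = 0.957). Slc2a3 had 10.03, 9.32 and 9.97 in MyoD+/+ and 9.49 and 9.92 in MyoD+/-, so the tumours of each genotype spread over the range of the other, with a difference of -0.07 ± 0.27. Its lowest levels were those of MyoD+/+ tumour 2 and MyoD+/- tumour 1. Both transporters were highest in MyoD+/+ tumour 1.

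Upper glycolysis, from the capture of glucose by hexokinase to the triose phosphates, had 6 tested members. By the brightest probe of each gene, the genotypes were apart in none of them. Their differences ran from -0.14 to 0.19, 4 higher and 2 lower (6 and 0 under median scaling). Pfkp, the platelet form of phosphofructokinase, which commits sugar to the pathway, had 8.41, 7.64 and 8.55 in MyoD+/+ and 7.80 and 8.98 in MyoD+/-. These levels span 1.34, or 2.54-fold, and the genotype difference was 0.19 ± 0.40 with a 95% interval from -0.76 to 1.13. A second Pfkp probe was above background on 3 arrays and not in MyoD+/+ tumour 2 and MyoD+/- tumour 1, the lowest tumours of the first probe. Aldoa, the aldolase that splits the 6-carbon sugar, had 11.23, 10.62 and 11.84 in MyoD+/+ and 10.91 and 11.55 in MyoD+/-. Its span of 1.22 (2.33-fold) lay within the genotypes, whose means differed by 0.01 ± 0.37.

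Tpi1, which interconverts the triose phosphates, had 12.41, 12.22 and 12.72 in MyoD+/+ and 12.13 and 12.52 in MyoD+/-, a difference of -0.12 ± 0.22. Its other 2 probes differed the other way, by 0.35 and 0.18, so no direction holds for the gene. Pfkm, the muscle form of phosphofructokinase, had 12.03, 11.68 and 12.02 in MyoD+/+ and 11.62 and 11.92 in MyoD+/- (difference -0.14 ± 0.20), and 1 of its 3 probes had the opposite sign. MyoD+/+ tumour 2 and MyoD+/- tumour 1 were again the lowest. Hk1, the hexokinase of resting brain, had 6.28, 6.22 and 6.47 in MyoD+/+ and 6.07 and 6.63 in MyoD+/- (0.03 ± 0.21), with a second probe of opposite sign. Pfkl, the liver form of phosphofructokinase, had another order, with 9.27, 9.35 and 10.04 in MyoD+/+ and 9.60 in each MyoD+/- tumour (0.04 ± 0.26). A second Pfkl probe was apart, at 4.86, 5.01 and 4.97 against 5.24 and 5.38. It passed the filter only through the MyoD+/- tumours, so its separation carries no weight.

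Lower glycolysis, in which energy is recovered, had 5 tested members, 2 higher and 3 lower in MyoD+/- (4 and 1 under median scaling). Gapdh, the dehydrogenase often used as a reference gene, had 12.28, 12.31 and 12.32 in MyoD+/+ and 12.08 in each MyoD+/- tumour. The 2 genotypes were apart by more than the spread within either, yet the fitted difference was only -0.22 ± 0.16 (limma adjusted p = 0.957), or 1.17-fold lower, and it was 0.02 when arrays were scaled to a common median instead of quantile-normalized. Pgk1, which makes the first ATP of the pathway, had 9.42, 9.16 and 9.33 in MyoD+/+ and 9.52 and 9.55 in MyoD+/-. Its groups did not overlap, at a difference of 0.23 ± 0.17 (limma adjusted p = 0.957), and a second probe differed by 0.18 ± 0.36 with overlapping tumours.

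Eno2, the enolase enriched in neurons, had the widest span of all members, with 12.06, 11.24 and 12.60 in MyoD+/+ and 11.16 and 12.28 in MyoD+/-. From the lowest to the highest tumour it covered 1.44, or 2.71-fold, while the genotypes differed by -0.25 ± 0.45 with an interval from -1.31 to 0.82. Leaving out MyoD+/- tumour 1 turned this difference to 0.31, and leaving out MyoD+/- tumour 2 took it to -0.81. Pgam1, the phosphoglycerate mutase, had 8.77, 8.56 and 9.04 in MyoD+/+ and 8.85 and 8.95 in MyoD+/- (0.11 ± 0.19). Pkm, the pyruvate kinase gene that gives both the M1 and M2 forms, to neither of which its probe was assigned here, had the narrowest span, 0.20, with 11.65, 11.53 and 11.72 in MyoD+/+ and 11.52 and 11.61 in MyoD+/- (-0.07 ± 0.16).

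Of the genes that handle pyruvate and lactate, only Pdk1 was tested, a kinase that switches off the entry of pyruvate into mitochondria. It had 5.07, 5.57 and 5.41 in MyoD+/+ and 5.79 and 5.39 in MyoD+/-, overlapping, at 0.24 ± 0.22. Ldhb, the lactate dehydrogenase subunit typical of oxidative tissue, was detected only in MyoD+/- tumour 2 (5.59), and Pfkfb3, which makes the activator of phosphofructokinase, only in MyoD+/+ tumour 3 (5.48). The lactate exporters Slc16a1 (1 probe) and Slc16a3 (3 probes) were not detected on any array, and neither were Epas1, Adm and Bnip3. Detection here is a property of these probes on these arrays, so it bounds those transcripts and does not show them absent.

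Hif1a, the oxygen-regulated subunit of the best known hypoxia-inducible factor, had 5.91, 5.49 and 6.21 in MyoD+/+ and 6.06 and 6.01 in MyoD+/- (0.16 ± 0.23), and its other 2 probes were not detected. Egln1, the main oxygen sensor in most tissues, had 7.08, 6.84 and 7.06 in MyoD+/+ and 7.28 and 6.98 in MyoD+/- (0.14 ± 0.18), with all 3 of its probes higher in MyoD+/-. Egln3, a sensor that hypoxia itself induces, lay close to background at 5.13, 4.91 and 5.05 in MyoD+/+ and 5.32 and 5.20 in MyoD+/-. It was detected in 0 of 3 MyoD+/+ and 2 of 2 MyoD+/- tumours, so the MyoD+/+ levels are only bounded, and the MyoD+/- mean was about equal to the lowest level called detected on the MyoD+/+ arrays (fitted difference 0.22 ± 0.17, limma adjusted p = 0.957). Hif1a and Egln1 were lowest in MyoD+/+ tumour 2, and none of the 3 genes passed the test.

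Among the hypoxia-induced members 8 were tested, 7 with a lower and 1 with a higher mean in MyoD+/-, at a median of -0.13. Under median scaling they split into 4 higher and 4 lower, at a median of -0.04. Ndrg1, a stress-induced gene that hypoxia raises and that myelinating cells also carry, had 7.98, 7.74 and 7.33 in MyoD+/+ and 7.18 and 6.67 in MyoD+/-. Every MyoD+/- tumour was below every MyoD+/+ tumour, and the mean was 1.69-fold lower (-0.76 ± 0.25, interval -1.35 to -0.16, limma unadjusted p = 0.0191 and adjusted p = 0.911). The second Ndrg1 probe had 6.98, 6.98 and 6.57 in MyoD+/+ and 6.77 and 6.12 in MyoD+/-, where the groups overlapped, at -0.40 ± 0.25. Without background correction the difference was -0.43, and without MyoD+/+ tumour 1 or MyoD+/- tumour 2 the unadjusted p no longer passed 0.05.

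Markers of mature oligodendrocytes, the myelinating cells of the brain, were mostly lower in MyoD+/- as well. Of 14 tested markers 13 had a lower mean in MyoD+/- (median -0.72), and their summed linear signal was 11966, 11168 and 8545 in MyoD+/+ and 5647 and 6436 in MyoD+/-. The groups were apart in 12 of the 14 (85.7%), beside 20.9% of all genes. An unadjusted limma p under 0.05 was reached by 10, beside 5.26% of all genes, while 0 passed after adjustment. Mbp, a myelin protein gene, differed by -1.29 ± 0.19 and Mobp by -1.45 ± 0.32. The defining markers Ermn, Aspa, Gjb1 and Gsn were not detected on any array. Within MyoD+/-, the summed signal was lower in tumour 1, whereas Ndrg1 was lower in tumour 2 (6.67, beside 7.18 in tumour 1). The part of these cells in the Ndrg1 difference was not tested.

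Bnip3l, a receptor that marks mitochondria for removal, had 10.51, 10.38 and 10.68 in MyoD+/+ and 10.76 and 10.73 in MyoD+/-. Its groups were apart by 0.05 at the nearest tumours (difference 0.22 ± 0.17, limma adjusted p = 0.957). Its close relative Bnip3, a classical hypoxia target, was not detected. Car9, the membrane carbonic anhydrase widely used to mark hypoxic tumour tissue, was near background, at 5.39, 4.90 and 6.13 in MyoD+/+ and 4.93 and 5.42 in MyoD+/-. It was detected in 2 of 3 MyoD+/+ and 1 of 2 MyoD+/- tumours, missing in MyoD+/+ tumour 2 and MyoD+/- tumour 1, and differed by -0.30 ± 0.36 (interval -1.13 to 0.53). Neither of its other 2 probes was detected.

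Ddit4, a stress gene that restrains the growth kinase mTOR, had 9.66, 10.19 and 10.15 in MyoD+/+ and 9.94 and 9.87 in MyoD+/- (-0.09 ± 0.21). Ankrd37, a hypoxia target of little known function, had 5.93, 6.05 and 6.41 in MyoD+/+ and 5.96 and 6.16 in MyoD+/- (-0.08 ± 0.20). Mxi1, which opposes Myc at shared partners, had 6.06, 5.80 and 6.02 in MyoD+/+ and 5.72 and 5.87 in MyoD+/- (-0.16 ± 0.17). In none of the 3 were the genotypes apart. P4ha1 and P4ha2, the catalytic subunits of the enzyme that hydroxylates collagen, had differences of -0.06 ± 0.20 and -0.20 ± 0.19. P4ha1 had 5.79, 5.77 and 5.66 in MyoD+/+ and 5.44 and 5.92 in MyoD+/-, and P4ha2 had 5.08, 5.50 and 5.41 against 5.06 and 5.22. The P4ha2 probe was detected in 2 of 3 MyoD+/+ and 1 of 2 MyoD+/- tumours. A second P4ha2 probe had the opposite sign, as did second probes of Hk1, Pfkm and Tpi1, 4 of the 11 members with more than 1 tested probe.

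**Figure D2:**
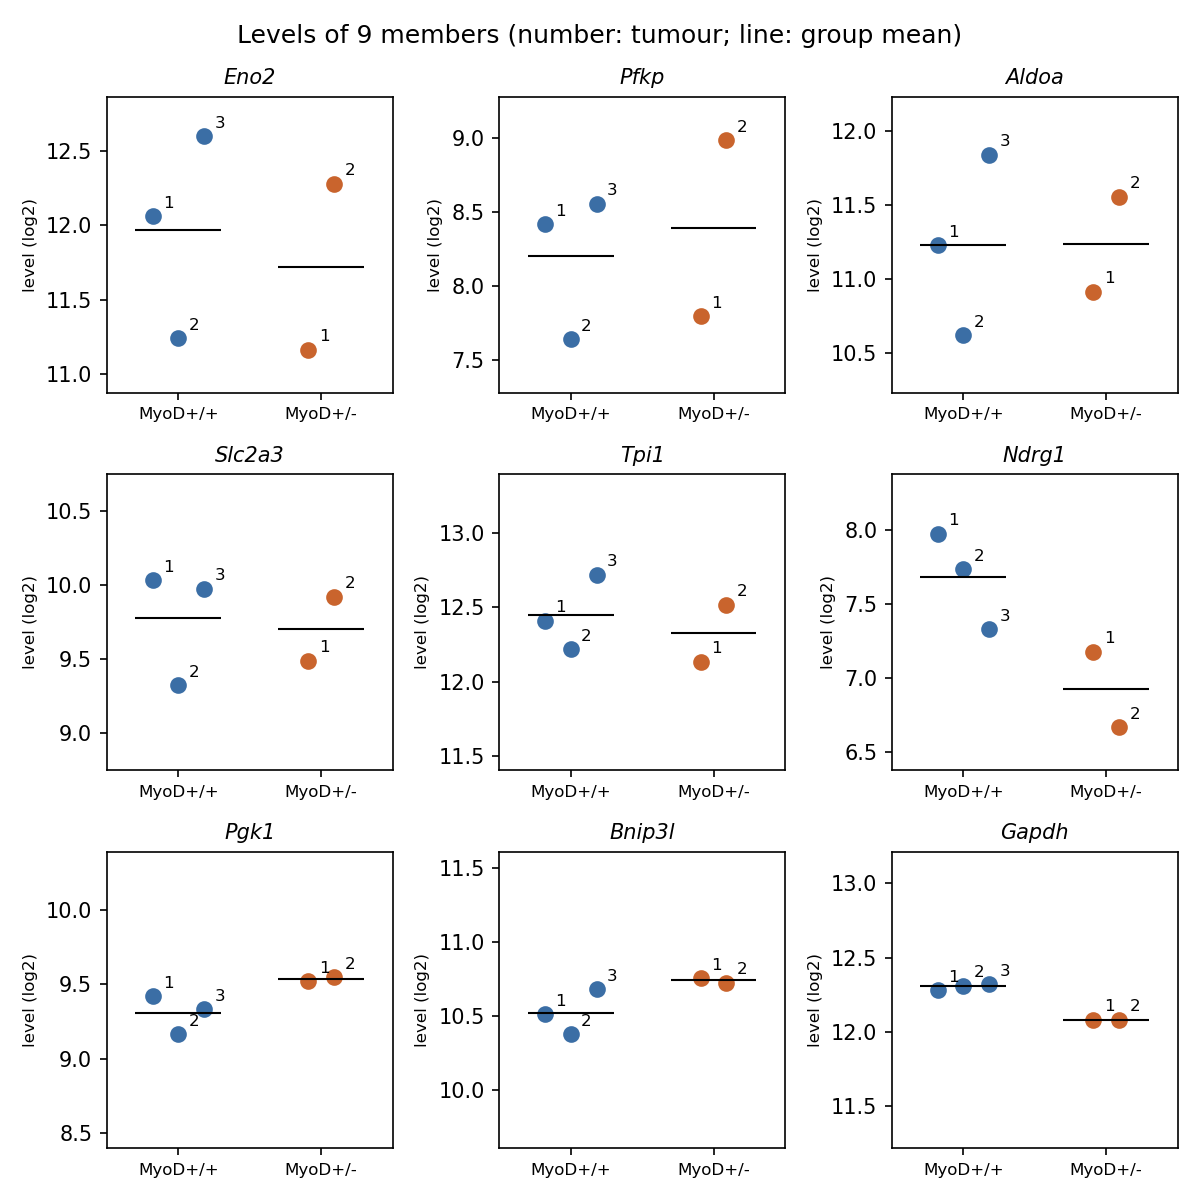
Levels (log2 signal after normalization) of 9 members in each tumour; points are tumours, numbered within their genotype, lines are group means, and every panel covers the same span of log2 units. Eno2, Pfkp, Aldoa, Slc2a3 and Tpi1 have MyoD+/+ tumour 2 and MyoD+/- tumour 1 at the bottom of their groups, while the genotypes separate in Ndrg1, Pgk1, Bnip3l and Gapdh.

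The same 2 tumours were often the lowest among the members. MyoD+/+ tumour 2 and MyoD+/- tumour 1, both with the title letter V, held the 2 lowest levels in 10 of the 25 members (40%), beside 13.6% of all genes. These were Slc2a3, Hk1, Pfkp, Pfkm, Aldoa, Tpi1, Eno2, Pkm, Car9 and Mxi1, which include 5 of the 6 upper glycolysis members. Other tested probes of Pfkp and Pfkm also had both V tumours lowest, but those of Tpi1, Hk1 and Pkm did not. The V tumours held the 2 highest levels in 1 member, Pdk1. Car9 was not above background in either V tumour. Among the 21 members detected on all 5 arrays the V tumours were lowest in 9, beside 13.2% of genes so detected. This count was chosen after the values were seen, so it is a description without a test.

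Set against the 2 tumours of the letter P within each genotype, 14 of the 25 members (56%) were higher in P than in V both times, beside 26.6% of all genes. Only 3 (12%) were lower both times, Ndrg1, Pdk1 and Ddit4, beside 33.5% of all genes. P minus V was 1.36 in MyoD+/+ and 1.12 in MyoD+/- for Eno2, and 0.92 and 1.19 for Pfkp. For Aldoa it was 1.22 and 0.64. Slc2a3 gave 0.65 and 0.43, and Tpi1 0.50 and 0.38. The gap was thus of the same sign in both genotypes for these 5, with 1 tumour on each side.

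Against the mean of the 3 other tumours, the V tumours were 2.17-fold lower in Eno2, 1.91-fold in Pfkp, 1.71-fold in Aldoa and 1.48-fold in Slc2a3. The median deviation of the 25 members from their own mean over the 5 tumours was 0.02, -0.18 and 0.16 in MyoD+/+ tumours 1 to 3 and -0.17 and 0.06 in MyoD+/- tumours 1 and 2. For the 6 upper glycolysis members it was 0.00, -0.20 and 0.30 in MyoD+/+ and -0.26 and 0.21 in MyoD+/-. Over all genes it stayed between -0.01 and 0.02. MyoD+/+ tumour 3 was the highest of the 5 in 10 members and the lowest in 0, beside 19.9% and 22.3% of all genes. The median span of a member over the 5 tumours was 0.48, no wider than the 0.56 of all genes. It was 0.68 for upper glycolysis, 0.39 for lower glycolysis and 0.48 for the hypoxia-induced members. The median standard deviation within MyoD+/+ was 0.24 for the members and 0.34 for upper glycolysis, beside 0.21 for all genes. Taken as a whole, the listed members thus stood out by which tumours were low and not by their median span. The 17 tested glycolytic enzymes outside the list did not share this order. Both V tumours were lowest in 2 of them (11.8%, beside 13.6% of all genes) and highest in 2. Their median deviation was 0.03 in MyoD+/+ tumour 2 and 0.06 in MyoD+/- tumour 1. Of 35 other hypoxia-induced genes, both V tumours were lowest in 7 (20%).

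**Figure D3:**
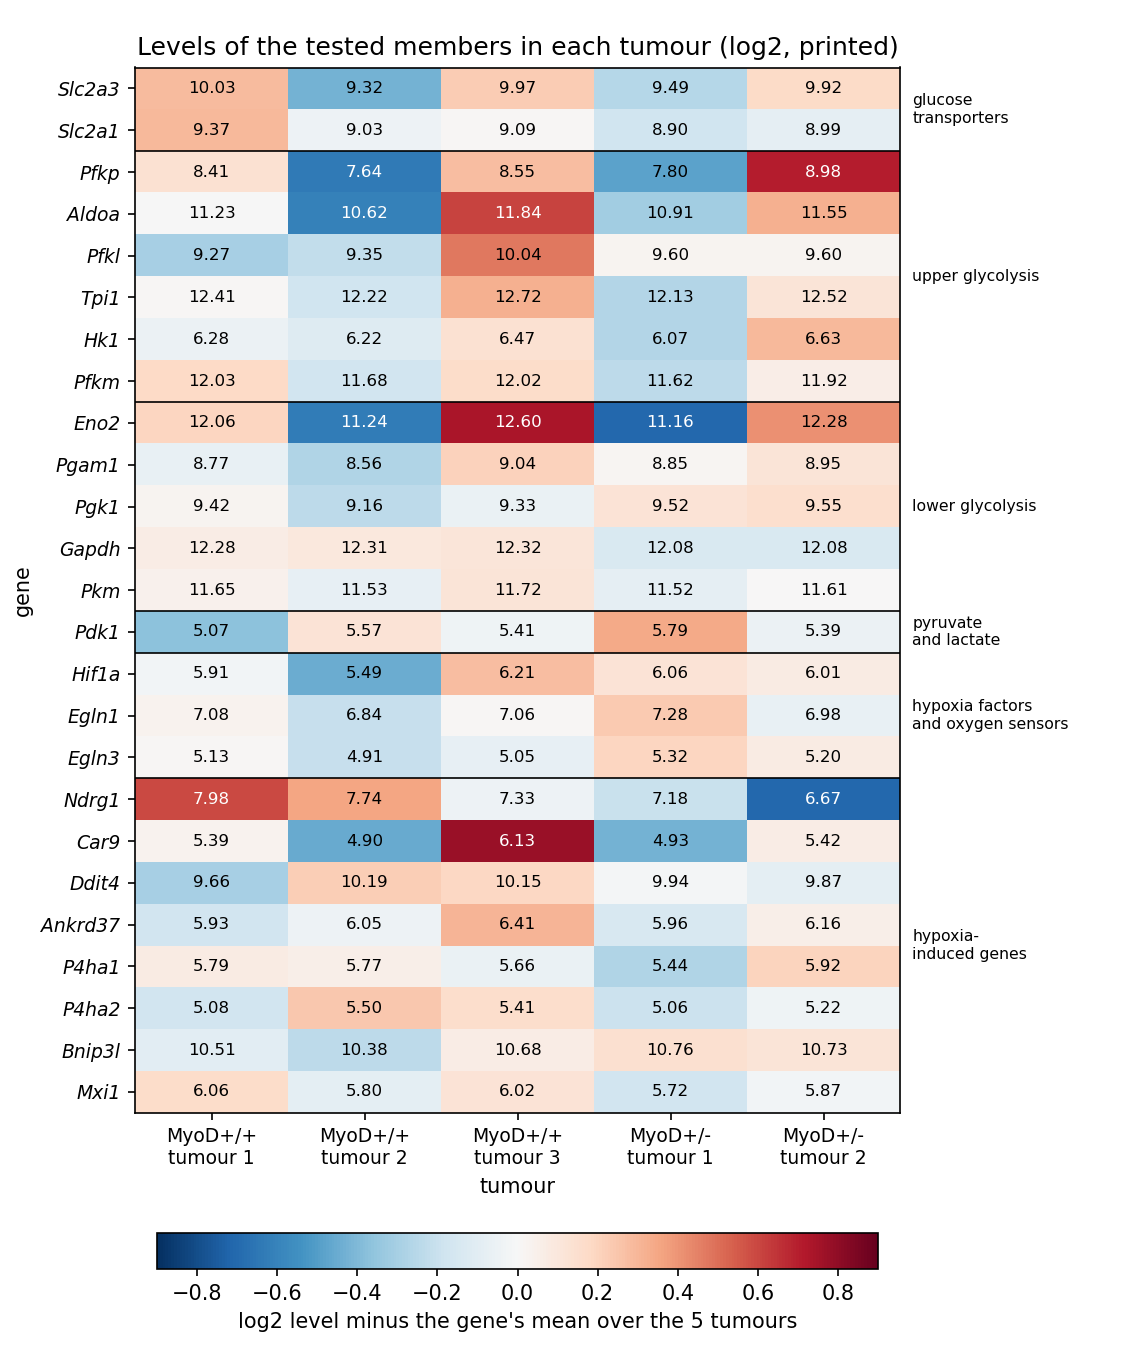
Levels of the 25 tested members in each tumour; printed numbers are log2 signals after normalization, and colour is the level minus the gene's own mean over the 5 tumours (log2). Blue runs down the columns of MyoD+/+ tumour 2 and MyoD+/- tumour 1 through most of upper glycolysis, Slc2a3 and Eno2, and Ndrg1 is lower in both MyoD+/- columns than in the MyoD+/+ columns.

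Marker lists of other cells differed between the same tumours. The 11 tested markers of mature granule neurons had summed signals of 39478, 30234 and 44726 in MyoD+/+ and 37264 and 47423 in MyoD+/-, so the V tumours were the 2 lowest. Single markers of that list had both V tumours lowest in 5 of 11 (45.5%), beside 13.6% of all genes. Cbln3 and Snap25 were not detected on any array. Neurod1 of that list is also counted among the granule neuron precursor markers below. The 14 tested markers of proliferating cells ran the other way, with 13388, 14470 and 12114 in MyoD+/+ and 15793 and 13595 in MyoD+/-, the V tumours being the 2 highest; Ccnb2, Bub1 and Ccna2 were not detected. The 11 granule neuron precursor markers summed to 27081, 27504 and 23835 in MyoD+/+ and 29715 and 25594 in MyoD+/-, again highest in the V tumours. The part of these cells in the low levels of the listed glycolytic members was not tested.

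The other lists did not share that order. Markers of endothelial and mural cells (16 tested), which line and wrap blood vessels, summed to 3049, 2568 and 3247 in MyoD+/+ and 2888 and 2790 in MyoD+/-. Red blood cell genes (4 tested) summed to 925, 5615 and 2637 in MyoD+/+ and 1154 and 6145 in MyoD+/-, so 1 tumour of each genotype was high. Astrocyte markers (15) summed to 23372, 21585 and 17588 against 17317 and 20083. Microglia and macrophage markers (11) summed to 6007, 5790 and 4565 against 6803 and 5628, and those of Purkinje cells and interneurons (5) to 10150, 9141 and 5063 against 5308 and 6425. Calb1, Car8 and Aldh1a3 of the Purkinje cell and interneuron list were not detected on any array. Nor were Abcb1a (endothelial and mural cells), Itgam (microglia and macrophages), Hbb-b2 and Alas2 (red blood cells). Median genotype differences were -0.09 for the endothelial and mural list, 0.11 for red blood cells, -0.17 for astrocytes, 0.18 for microglia and macrophages, -0.39 for Purkinje cells and interneurons, 0.15 for mature granule neurons, 0.16 for proliferating cells and 0.02 for precursors. None of their genes passed the adjusted test.

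**Figure D4:**
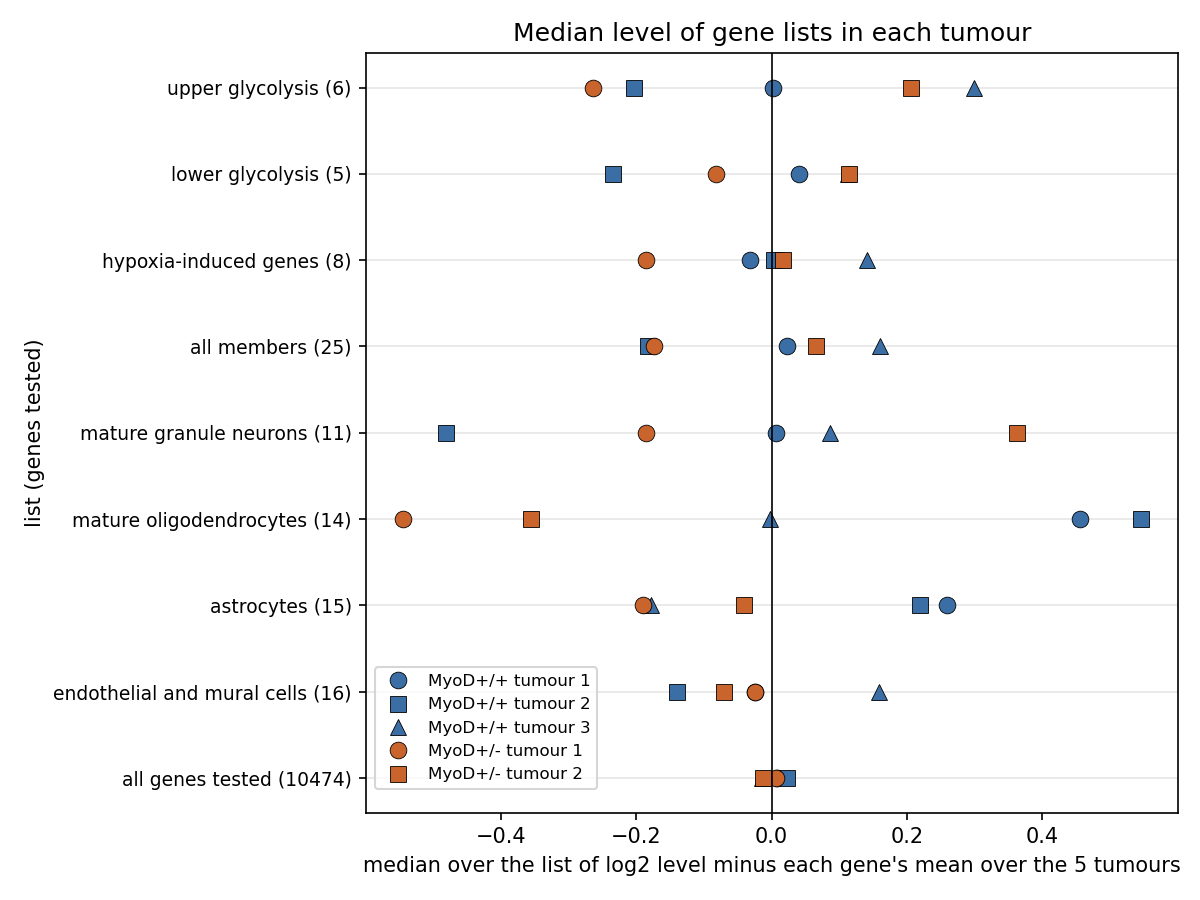
Median, over each gene list, of the log2 level minus the gene's mean over the 5 tumours; each point is 1 tumour, blue for MyoD+/+ and orange for MyoD+/-, with the number of tested genes in brackets. MyoD+/+ tumour 2 and MyoD+/- tumour 1 lie lowest for upper glycolysis, all members and mature granule neurons, whereas the oligodendrocyte list separates by genotype.

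Related enzymes were compared through their ratio within each array, centred on its mean over the 5 tumours. This shows whether the balance of a pair shifted but not which form is more abundant. The ratio of Pfkp to Pfkm was -0.04, -0.47 and 0.11 in MyoD+/+ and -0.24 and 0.64 in MyoD+/- (log2), a span of 1.11, with the V tumours lowest. Pfkl to Pfkm followed another order, at -0.48, -0.05 and 0.31 in MyoD+/+ and 0.26 and -0.04 in MyoD+/-. The ratio of Slc2a3 to Slc2a1 was -0.01, -0.38 and 0.21 in MyoD+/+ and -0.08 and 0.25 in MyoD+/-, again lowest in the V tumours. That of P4ha2 to P4ha1 was -0.25, 0.19 and 0.22 against 0.08 and -0.24. P4ha2 was not above background in MyoD+/+ tumour 1 and MyoD+/- tumour 1, so this ratio rests partly on background. No balance is given for Egln3 and Egln1, since Egln3 was not above background in MyoD+/+. In none of the 4 pairs did the 2 genotypes separate.

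Promoters of the members are shown for Eno2, Pfkp, Aldoa and Car9, 4 of the genes with the widest spread that shared their low tumours, and for Pgk1, in which the genotypes did not overlap. Each window runs from 250 bases before to 50 bases after the annotated start on the gene's strand (RefSeq, GRCm38.p6), and capitals mark the core ACGTG or its reverse complement CACGT. Eno2 lies at chr6:124769624-124769923 on the minus strand and Pfkp at chr13:6648722-6649021 on the minus strand. Aldoa, which has 3 annotated windows, is shown at chr7:126799205-126799504 on the minus strand, a window chosen because it holds the core. Another Aldoa window, chr7:126800398-126800697, holds 0 matches. Car9 is shown at chr4:43506776-43507075 and Pgk1 at chrX:106186850-106187149, both on the plus strand.
Eno2: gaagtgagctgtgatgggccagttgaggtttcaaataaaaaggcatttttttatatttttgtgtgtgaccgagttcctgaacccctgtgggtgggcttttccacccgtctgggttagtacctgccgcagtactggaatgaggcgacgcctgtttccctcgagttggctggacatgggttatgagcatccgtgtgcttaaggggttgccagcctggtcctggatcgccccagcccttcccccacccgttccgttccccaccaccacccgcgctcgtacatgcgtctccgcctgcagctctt
Pfkp: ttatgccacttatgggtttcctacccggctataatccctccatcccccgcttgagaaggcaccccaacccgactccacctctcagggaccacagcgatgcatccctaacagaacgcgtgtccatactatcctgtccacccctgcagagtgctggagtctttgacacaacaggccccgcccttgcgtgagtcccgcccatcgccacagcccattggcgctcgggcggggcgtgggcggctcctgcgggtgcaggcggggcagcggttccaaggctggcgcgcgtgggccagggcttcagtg
Aldoa: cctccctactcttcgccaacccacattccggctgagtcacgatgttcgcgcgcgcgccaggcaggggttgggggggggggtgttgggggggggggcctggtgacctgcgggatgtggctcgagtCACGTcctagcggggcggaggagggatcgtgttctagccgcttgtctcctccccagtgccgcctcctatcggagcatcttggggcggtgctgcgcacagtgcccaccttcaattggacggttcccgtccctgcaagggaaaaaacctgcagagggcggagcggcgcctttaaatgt
Car9: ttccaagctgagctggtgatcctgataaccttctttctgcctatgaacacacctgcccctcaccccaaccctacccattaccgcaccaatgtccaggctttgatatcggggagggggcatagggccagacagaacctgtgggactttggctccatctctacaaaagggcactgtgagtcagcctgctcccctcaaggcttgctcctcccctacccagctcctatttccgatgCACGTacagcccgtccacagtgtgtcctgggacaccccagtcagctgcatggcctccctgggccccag
Pgk1: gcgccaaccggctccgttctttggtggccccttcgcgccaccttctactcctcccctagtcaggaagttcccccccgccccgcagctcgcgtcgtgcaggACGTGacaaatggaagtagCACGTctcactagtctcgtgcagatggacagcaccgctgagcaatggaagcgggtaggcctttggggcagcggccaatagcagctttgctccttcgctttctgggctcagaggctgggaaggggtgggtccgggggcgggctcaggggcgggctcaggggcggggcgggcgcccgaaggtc

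The windows of Eno2 and Pfkp, the 2 members with the widest span, held 0 matches to ACGTG on either strand. Only this form of the core was counted here, and the variant GCGTG, present in the printed Pfkp window, was not. The shown window of Aldoa, chosen for its match, and that of Car9 held 1 each, on the reverse strand. That of Pgk1 held 1 on each strand. No match in these 5 windows was part of the longer E-box CACGTG. Promoters were listed for 31 of the 35 members. Of these, 22 (71.0%) held the core in at least 1 window, beside 21.8% of all 27025 genes with a listed promoter. Among tested genes with a listed promoter, 17 of the 22 members held it, beside 29.1% of 8479. Counted by window the share was 59.1% of 44 beside 19.6% of 32851. The members' windows were also richer in G and C, with a median of 64.0% beside 52.7% over all windows and 60.7% over those of tested genes. A match to 5 letters is a description of the window and not a binding site, and the list itself names known hypoxia targets.

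Genes of the same pathways outside the list showed no adjusted call either. Of 17 tested other glycolytic enzymes, 10 were higher and 7 lower in MyoD+/-, with a median of 0.06. In 5 (29.4%) the groups were apart, beside 20.9% of all genes, and 2 had an unadjusted limma p under 0.05, beside 5.26%. Minpp1, a phosphatase that can bypass a glycolytic step, differed by -0.91 ± 0.21. It was detected in 3 of 3 MyoD+/+ but only 1 of 2 MyoD+/- tumours, so its level in MyoD+/- tumour 2 is only bounded. Pgm1, which links glycogen to glycolysis, differed by 0.58 ± 0.22, and Pfkfb2 by -0.38 ± 0.16. Ldha, the lactate dehydrogenase subunit of glycolytic tissue, had 11.17, 11.12 and 11.47 in MyoD+/+ and 11.46 and 11.22 in MyoD+/- (0.08 ± 0.19), overlapping. Of 35 other hypoxia-induced genes, 18 were higher and 17 lower (median 0.02), and 8 (22.9%) were apart, again beside 20.9% of all genes. An unadjusted limma p under 0.05 was reached by 2, both lower. These were Tfrc, the transferrin receptor, at -0.64 ± 0.16, and Ankzf1 at -0.49 ± 0.21, followed by Errfi1 at -0.36 ± 0.18.

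Vegfa, the vessel growth factor that hypoxia induces, had 8.29, 8.26 and 8.80 in MyoD+/+ and 8.05 and 8.07 in MyoD+/-. Its groups were apart, at -0.39 ± 0.21 (limma adjusted p = 0.945). In the oxygen sensing machinery 16 were tested, 10 higher and 6 lower, with 0 under an unadjusted p of 0.05; the smallest p-values belonged to the coactivator Crebbp (0.31 ± 0.26), to Hif3a, which was above background in 2 of 3 MyoD+/+ and 0 of 2 MyoD+/- tumours and so has only a bound in the latter, and to the ubiquitin ligase subunit Cul2 (0.16 ± 0.16). Genes for the entry of pyruvate into mitochondria numbered 10, 7 higher and 3 lower, with a median of 0.18. Among them Pdp2, a phosphatase that reactivates pyruvate dehydrogenase, differed by 0.51 ± 0.19, the kinase Pdk3 by 0.41 ± 0.17 and the dehydrogenase subunit Pdhb by 0.38 ± 0.24. The 6 tested genes of the pentose phosphate pathway had a median of 0.03, and none had an unadjusted p under 0.05 (Tkt -0.20 ± 0.18, Rpia 0.15 ± 0.18, Rpe 0.20 ± 0.24).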

How the data were processed

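RNA from 5 tumours was hybridised to Illumina mouse bead arrays, 1 per tumour; per the labels' protocols it was Trizol- and column-purified, DNase-treated and amplified to biotinylated cRNA. The authors deposited a signal intensity per probe and array, not normalized per the file headers, and beside it a detection p-value per probe. The authors also deposited processed values, log2 by comparison with the signals (rank correlation 1, at most 0.00249 from quantile-normalized log2 signals). No scanning software is named in the labels.

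Signals were corrected and normalized with neqc of limma 3.58.1 in R 4.3.3 (offset 16). Probes with a detection p under 0.05 on 2 or more arrays were kept. Gene names came from the platform annotation (34885 probes with 1 symbol, 18 with several, 10378 unnamed here), of which 34807 matched a RefSeq table (GRCm38.p6) that changed 0 symbols. The brightest probe stood for each gene. Genotypes were compared with lmFit and eBayes, two-sided, with genotype as the only term and Benjamini-Hochberg adjustment over 10474 genes; the fit was tested on simulated data. The number of arrays limits the precision.

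All 35 members were described, with the 3 genes of smallest unadjusted p from each of 5 pathway lists plus Ldha and Vegfa, and 9 cell lists by counts, median and sum. Members and lists were chosen with earlier results of these data known. The 16 alternatives covered background correction, scaling, offset, the authors' processed values, filters, probes per gene, variance model, array weights, a block on title letters and each tumour left out in turn.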

Additional observations from a re-analysis of the deposited data

How the results depend on the processing

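No member passed an adjusted p of 0.05 in any of the 16 alternatives, where the smallest adjusted p of a member was 0.588. Over the whole series, 2 genes passed under the robust fit with a mean-variance trend, and 0 to 1 when a tumour was left out. Members at an unadjusted p under 0.05 numbered 2 (Ndrg1 and Gapdh) with uncorrected background, likewise 2 with the authors' processed values, and 0 to 1 without single tumours (0 without MyoD+/+ tumour 1 or MyoD+/- tumour 2). Members whose groups did not overlap numbered 8 to 16 with a tumour left out (10 without MyoD+/+ tumour 2 and 16 without MyoD+/- tumour 2), where 33.8% to 49.7% of all genes did not overlap, since fewer tumours are compared. Median scaling moved the median of all genes to 0.14 and that of the members to 0.12, and left 4 members with groups apart. The members' median turned positive when MyoD+/+ tumour 3 (0.06) or MyoD+/- tumour 1 (0.04) was left out, and was -0.24 with MyoD+/- tumour 2 left out. Ndrg1 stayed lower in all 16, from -1.01 to -0.43. In all, 8 of the 25 members (Bnip3l, Egln3, Mxi1, Ndrg1, P4ha2, Pdk1, Pgk1 and Slc2a1) kept their sign in each alternative in which they were tested, 15 of the 16 for Egln3, P4ha2 and Pdk1, while a second P4ha2 probe had the opposite sign; 17 turned in some alternative. Members with both V tumours lowest, a count added after seeing the data, numbered 13 with median scaling (19.9% of all genes), 11 of 32 without a filter (11.9%), 9 of 20 with the stricter filter (13.4%) and 14 of 39 probes (13.6%). With the title letters as a block, V is set against V and P against P. MyoD+/+ tumour 1, alone with its letters AI, does not enter the difference. Under that block Ndrg1 differed by -0.61, the same as without MyoD+/+ tumour 1. An unadjusted limma p under 0.05 was reached by 879 genes, beside 551 in the main fit. Each of V and P holds 1 tumour per genotype, so this fit has little spread of its own to measure. Members near background, such as Car9, Egln3, P4ha2 and Pdk1, are limited by their signal.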
